A study of Rattus norvegicus with 16 samples.

Results

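One-strand piRNA clusters are the testis clusters that share no base with a cluster on the opposite strand of the same chromosome. They were taken from the deposited list of piRNA clusters by comparing each start and end with those on the other strand, and 279 of the 365 clusters in the list qualified. The other 86 clusters overlap an opposite-strand cluster by at least 1 bp and are called overlapping clusters here. Small RNAs were sequenced from 6 whole organs (testis, brain, heart, kidney, liver and spleen) of an adult male BN-Lx rat and an adult male SHR rat. For these rats the labels give no treatment other than freezing of the tissue. The series also has 4 further livers, labeled as adult male BN-Lx or adult male SHR. BN-Lx is an inbred Brown Norway line with the polydactyly-luxate syndrome, and SHR is the inbred spontaneously hypertensive rat. The clusters were described for testis, which has 1 library per strain, and the list names no strain or library. It therefore allows no replicate error and no strain comparison, and the values below describe positions on RGSC3.4 without a test.

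piRNAs are small RNAs of the germ line that are bound by Piwi proteins. Repeat-derived piRNAs take part in the silencing of transposons. The pachytene piRNAs of spermatocytes and round spermatids come from long precursor transcripts of a limited set of loci. Many of these loci are transcribed from 1 strand, and others in both directions from a shared central promoter, so that the strand of the piRNAs follows the strand of the precursor.

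The 16 libraries held between 26880 and 3229461 perfectly matching reads on pre-miRNA hairpins. The testis libraries were the shallowest on hairpins, at 26880 reads for the BN-Lx rat and 29131 for the SHR rat. The hairpin of mir-202, a miRNA known from gonads, had 669 reads in the testis of the BN-Lx rat and 1261 in that of the SHR rat. Per 1000000 hairpin reads this amounts to 24888 and 43287, against at most 88.2 in the 14 libraries of other tissues. Hairpin reads are not the reads behind the clusters. The files used here give no read count per cluster, so the depth behind a position is unknown.

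The one-strand clusters were mostly shorter than the overlapping ones. Their length ranged from 98 to 41080 bp, with a median of 4543 bp and quartiles of 2325 and 7706 bp. The overlapping clusters ranged from 424 to 89831 bp, with a median of 17272 bp and quartiles of 7686 and 33717 bp. The ratio of the medians, overlapping over one-strand, was 3.80. The ranges overlap widely, yet in 81.5% of the 23994 possible couples of an overlapping and a one-strand cluster the overlapping one was the longer. Of the one-strand clusters, 14 (5.02%) exceeded the median overlapping cluster, and 11 overlapping clusters (12.8%) fell below the median one-strand cluster. Length is computed from the same start and end that the rule used, and a longer cluster has more room to overlap another. The direction of this difference is therefore partly set by the rule, and no test of it is given.

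**Figure D1:**
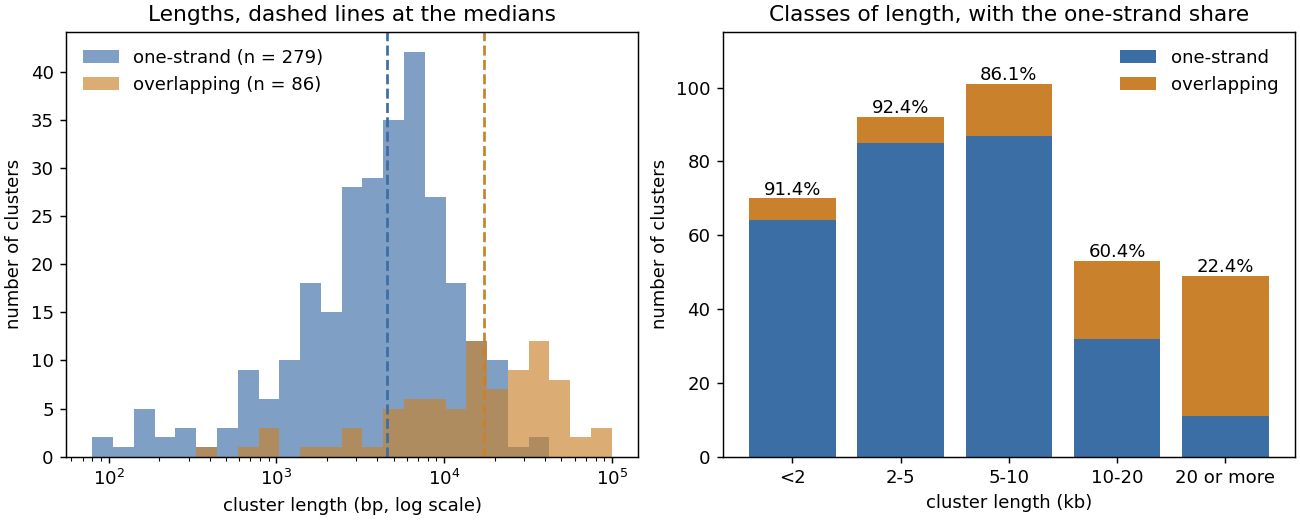
Left, number of clusters by length in bp on a log scale for one-strand (blue) and overlapping (orange) clusters, with dashed lines at their medians of 4543 and 17272 bp. Right, number of clusters in each class of length in kb, with the share of one-strand clusters above each bar, which is 92.4% between 2 and 5 kb and 22.4% at 20 kb and over.

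As a description partly set by the rule, the share of one-strand clusters was lower in the classes of length above 10 kb. It was 91.4% of the 70 clusters under 2 kb, 92.4% of the 92 clusters from 2 to 5 kb and 86.1% of the 101 from 5 to 10 kb. From 10 to 20 kb it was 60.4% of 53 clusters, and at 20 kb and over 22.4% of 49. The one-strand clusters thus made up 76.4% of the list and 45.4% of its summed length, or 1.68 Mb against 2.02 Mb in overlapping clusters.

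Of the one-strand clusters, 11 were at least 20 kb long, and the 10 longest held 15.1% of the one-strand length. The longest, chr12:5595818-5636897 on the plus strand, spans 41080 bp and stands alone, with the nearest cluster of either strand 5.47 Mb away. The next, chr17:17518458-17552248 on the minus strand, spans 33791 bp and has another minus-strand cluster at 2422 bp and a plus-strand cluster at 11204 bp. The one after it, chr1:49020615-49045730 on the minus strand, is 25116 bp long and lies 13370 bp from a cluster on its own strand and 1.03 Mb from any on the other. These 3 are examples of settings among the long members: an isolated locus, a locus with near clusters on both strands, and a member of a series on 1 strand. The settings can coincide, as the second example also follows or precedes a near cluster on its own strand.

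Chromosome 2 holds the fourth and the fifth longest. The cluster chr2:44390030-44413114 (minus, 23085 bp) is isolated by 61.2 Mb, and chr2:105748591-105771626 (minus, 23036 bp) lies 1117 bp from its neighbor on the same strand. The cluster chr13:73605393-73627274 (minus, 21882 bp) is 1485 bp from a same-strand cluster and 1499 bp from an opposite-strand one. On chromosome 20, chr20:29897795-29918830 (plus, 21036 bp) and chr20:29920722-29942311 (plus, 21590 bp) follow each other at 1891 bp. The last 2 are chr3:141066421-141087858 (minus, 21438 bp), which lies 1066 bp from a same-strand neighbor, and chr8:103116620-103137438 (minus, 20819 bp), which is 9.24 Mb from any other cluster. Among these 10, 7 are on the minus strand. For comparison, the 3 longest overlapping clusters are chr20:5498701-5588531 (plus, 89831 bp), its partner chr20:5478714-5565377 (minus, 86664 bp) and chr15:184144-259915 (minus, 75772 bp).

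At the other end, 64 one-strand clusters were under 2 kb, the width of the window in which a cluster core was sought. The shortest were chr12:20775767-20775864 (plus, 98 bp), chr1:92628373-92628471 (minus, 99 bp) and chr7:99315188-99315320 (minus, 133 bp). The cores were defined by more than 20 unique read starts on 1 strand, and the list does not give how many starts these short clusters held.

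More one-strand clusters were on the minus strand than on the plus strand, 162 (58.1%) against 117. In the overlapping clusters the count was 43 on each strand. Every overlap needs a cluster on each strand, so that balance is largely set by the rule. In the whole list 56.2% of the 365 clusters were on the minus strand. Minus-strand members had a median length of 4115 bp and a range of 99 to 33791 bp, and plus-strand members a median of 4783 bp and a range of 98 to 41080 bp, so the strands overlap over nearly the whole range. Chromosome 2 carries 20 minus and 5 plus members, and without it the minus share was 55.9% of 254. Minus exceeded plus on 9 chromosomes, plus exceeded minus on 7, and 4 had equal numbers. Neighbors on 1 strand are not independent, so the balance was not tested.

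One-strand clusters were found on each of the 20 autosomes, and the list has no cluster on chromosome X. Their number per chromosome ranged from 2 to 50 with a median of 11. Chromosome 1 held 50, chromosome 4 held 32, and chromosomes 2 and 7 held 25 each, which together is 47.3% of the members. Chromosomes 2, 14 and 16 had one-strand clusters and no overlapping one. On chromosome 14 the 5 clusters are all on the minus strand, between 906 and 6151 bp long. Chromosome 11 had the lowest share of one-strand clusters, 2 of 6. The lengths of the chromosomes in RGSC3.4 were not used here, so these counts are not densities.

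**Figure D2:**
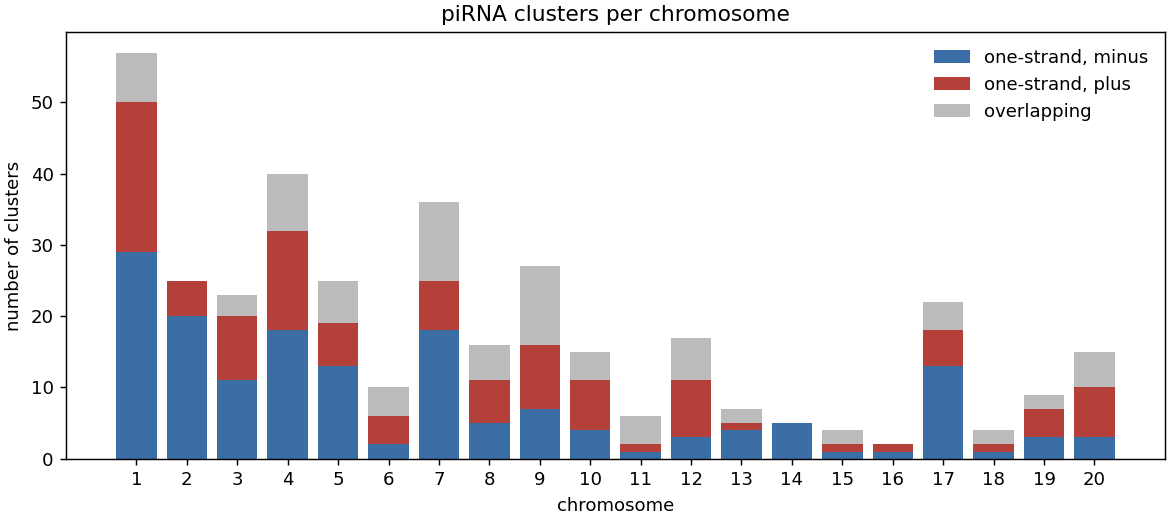
Number of piRNA clusters (vertical axis) on each chromosome (horizontal axis), stacked as one-strand minus (blue), one-strand plus (red) and overlapping (gray). Chromosome 1 has 50 one-strand clusters, and chromosomes 2, 14 and 16 have no overlapping cluster.

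The spacing of the one-strand clusters fell into a dense part and a sparse part. The distance to the nearest cluster on either strand had a median of 17890 bp, with quartiles of 2727 bp and 1.93 Mb. This median depends on where the list breaks a locus, and became 186658 bp when same-strand clusters within 5 kb were joined first. As deposited, the distance was under 10 kb for 122 members (43.7%), between 10 and 100 kb for 48, between 100 and 1000 kb for 28, and 1 Mb or more for 81 (29.0%). The member farthest from any other was chr6:26481608-26484817 (plus, 3210 bp), at 67.1 Mb. Crowded and isolated members overlapped in length. The median was 4768 bp (98 to 33791 bp) with a neighbor under 10 kb and 3961 bp (133 to 41080 bp) with none within 1 Mb.

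The near neighbors that the rule left were mostly on the same strand. Members were kept for touching no opposite-strand cluster, so the closest opposite-strand neighbors had been removed with the 86 overlapping clusters, while no such limit applied to the same strand. The contrasts between same and opposite strand given here are therefore partly set by the rule and are a description. Under 10 kb, 117 members had a same-strand neighbor and 16 an opposite-strand neighbor. The median distance was 27.7 kb to the nearest same-strand cluster and 1.19 Mb to the nearest opposite-strand cluster. The nearest cluster was a one-strand cluster of the same strand for 176 members (63.1%) and an overlapping cluster of the same strand for 26 (9.32%). The overlapping clusters had a similar same-strand spacing, with a median of 36.5 kb and 37 of 86 (43.0%) under 10 kb, beside 41.9% of the one-strand clusters.

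Taking successive clusters of the list that were both one-strand, 231 neighbor pairs were formed and 150 of them were on the same strand. Of the 69 pairs under 10 kb apart, 65 (94.2%) shared the strand. Between 10 and 100 kb this was 23 of 35 (65.7%), between 100 and 1000 kb 11 of 28 (39.3%), and from 1 Mb on 51 of 99 (51.5%). Among these members, close neighbors were thus mostly on 1 strand and those from 1 Mb on were divided about evenly. The 46 overlapping opposite-strand pairs do not enter these counts, because the rule leaves them out. Up to 100 kb the share was 84.6%, and it was 72.4% after same-strand clusters within 5 kb were joined and 76.1% without clusters under 1 kb. Without the 26 clusters of the 3 runs with most members, 47 of 51 pairs under 10 kb (92.2%) shared the strand. Of the 65 same-strand pairs under 10 kb, 43 were under 5 kb apart, the kind of pair that joining removes. The share under 10 kb after joining is not given.

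**Figure D3:**
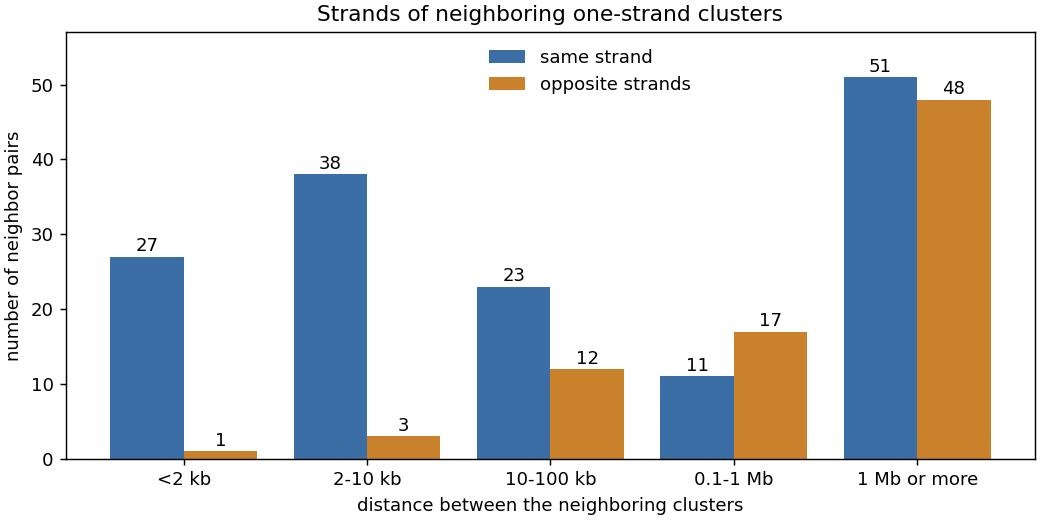
Number of pairs of successive one-strand clusters (vertical axis) on the same strand (blue) or on opposite strands (orange), by the distance between them. Under 10 kb 65 of 69 pairs share the strand, and from 1 Mb on 51 of 99 do.

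How the list was made bears on the smallest of these distances. A cluster was extended while the next read on its strand lay within 1 kb, and the smallest same-strand distance in the list was 1014 bp, and 43 of 326 same-strand distances were at most 2 kb. By that rule, stretches of reads on 1 strand that are over 1 kb apart are listed as separate clusters, so a count of neighbors is also a count of such breaks. The limit does not apply between strands, and the smallest distance from a one-strand cluster to an opposite-strand one was 951 bp.

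A run was defined as 2 or more successive one-strand clusters on 1 strand, each at most 100 kb from the one before. There were 47 runs on 14 chromosomes, with 135 members (48.4% of the one-strand clusters). After joining same-strand clusters within 5 kb there were 29 runs with 71 members. Of the runs, 30 had 2 members, 17 had at least 3 and 9 had at least 4. The minus strand held 29 runs with 86 members and the plus strand 18 runs with 49. The runs spanned 8.21 to 261 kb, with a median of 23.7 kb. Of the 88 distances within runs, 27 were under 2 kb and 65 under 10 kb. Members of runs had a median length of 4530 bp, and the 144 clusters outside runs 4623 bp.

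The run with most members lies on the minus strand at chr2:105652182-105782616, with 12 clusters over 130 kb that cover 58.9% of it. Short and long members lie apart in it. The first 7 clusters, beginning with chr2:105652182-105654182 (2001 bp), are 154 to 3006 bp long and lie 1311 to 7169 bp apart. A distance of 25552 bp separates them from the last 5, which are 5979 to 23036 bp long and lie 1117 to 1920 bp apart. The last 5 include the 23036 bp cluster given above and end with chr2:105772744-105782616 (9873 bp).

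The run with the next most members is on the plus strand of chromosome 1, chr1:47726146-47987115, with 8 clusters over 261 kb that cover 14.7% of it. Breaks of 90815 and 99309 bp make up most of its span, and the other distances are 1358 to 11690 bp. It begins with chr1:47726146-47730684 (4539 bp) and ends with chr1:47984262-47987115 (2854 bp), and its longest member is chr1:47847561-47866197 (18637 bp). The next, at chr2:221194541-221221599 on the minus strand, has 6 short clusters of 161 to 1420 bp that cover 17.4% of 27.1 kb, from chr2:221194541-221195957 (1417 bp) to chr2:221221439-221221599 (161 bp), the longest being chr2:221203434-221204853. A run of 4 at chr1:13900499-13958259 on the minus strand is the opposite case, since its clusters of 7249 to 19367 bp cover 87.3% of 57.8 kb.

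**Figure D4:**
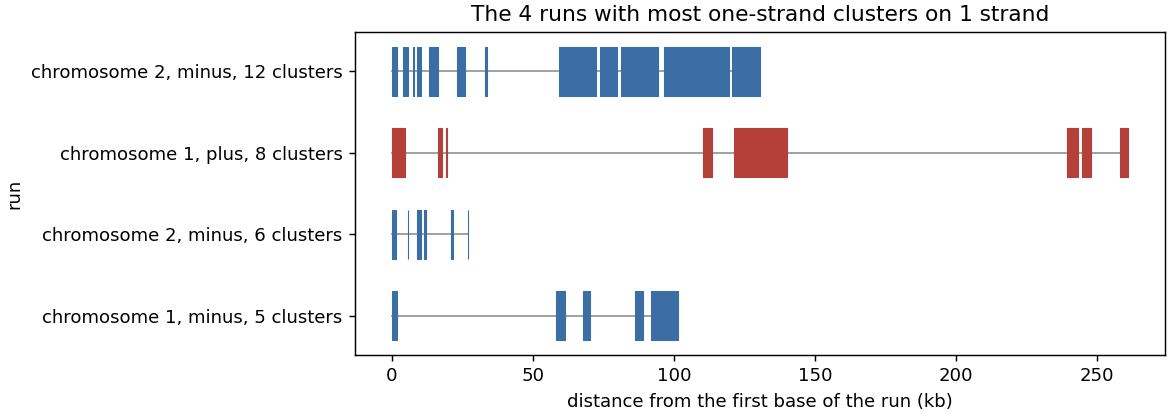
The 4 runs with most one-strand clusters, drawn as blocks along the distance in kb from the first base of each run (horizontal axis), 1 run per row, with plus-strand runs in red and minus-strand runs in blue. The run on chromosome 2 with 12 clusters has 7 short blocks and then 5 longer ones after 25552 bp.

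Runs can follow each other. When clusters up to 1 Mb apart were joined on either strand, the place with most one-strand clusters was chr1:47726146-49071829, with 16 of them and no overlapping cluster. The first 8, on the plus strand, are the run described above. The other 8 are on the minus strand, in a run of 5 at chr1:48277504-48378863 and a run of 3 at chr1:49002753-49071829 that contains the third longest member. The strand thus changed once over 1346 kb. With joining up to 100 kb, 151 of 184 places contained one-strand clusters and no overlapping ones, and these held 241 of the 279 members. Of the 184 places, 109 held a single cluster, which is one-strand by the rule.

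One-strand clusters also met at short distance on opposite strands, without touching. There were 16 pairs of successive one-strand clusters on opposite strands up to 100 kb apart. In 10 of them (62.5%) the minus-strand cluster came first, so that the strands point away from each other, and in 6 they point towards each other. The overlapping clusters formed 46 pairs, in 42 of which (91.3%) the midpoint of the minus-strand cluster came first. This order is not like that of clusters that do not touch. In 17 of the 46 pairs the shorter cluster lies wholly within the other, so their midpoints do not show strands that part. The 4 pairs with the plus-strand midpoint first are all among these 17. In every pair without such containment the minus-strand midpoint came first. Up to 10 kb the one-strand pairs were 2 of each order, and the difference from the overlapping pairs was not tested.

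The member nearest to any opposite-strand cluster, just inside the rule, belongs to the closest of these pairs. The clusters chr17:20774422-20792079 (plus, 17658 bp) and chr17:20793031-20802507 (minus, 9477 bp) point towards each other across 951 bp. The next members just inside the rule have an overlapping cluster as their opposite-strand neighbor. They are chr9:105247631-105252413 (plus) at 1264 bp, chr4:122184763-122186545 (minus) at 1376 bp and chr5:79244109-79252484 (plus) at 1415 bp. The other close pairs of one-strand clusters lie farther apart. At 6468 bp, chr1:184391663-184392496 (minus, 834 bp) and chr1:184398965-184403631 (plus, 4667 bp) point away. At 7649 bp, chr12:11110596-11112637 (plus, 2042 bp) and chr12:11120287-11124729 (minus, 4443 bp) point towards each other. At 9239 bp, chr12:27559223-27564399 (minus, 5177 bp) and chr12:27573639-27576343 (plus, 2705 bp) point away, and at 16461 bp chr4:119314655-119317107 (plus, 2453 bp) and chr4:119333569-119338043 (minus, 4475 bp) point towards each other.

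Just outside the rule, the smallest overlap was 424 bp. There the plus-strand cluster chr4:164771148-164771571 (424 bp) lies wholly within chr4:164764925-164771713 on the minus strand. The next overlaps were 690 bp at chr5:79241997-79242686 (plus) and 786 bp at chr9:105245581-105246379 (plus). The median overlap was 6656 bp, the median share of the shorter cluster that overlapped was 91.0%, and in 17 pairs the shorter cluster was fully contained. No one-strand cluster lay closer than 951 bp to an opposite-strand cluster, and no overlap was below 424 bp.

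Some one-strand clusters flanked overlapping ones. Within 100 kb of an overlapping cluster lay 37 members, with a median length of 5888 bp, beside 4187 bp for the other 242. Of these 37, 13 (35.1%) were on the minus strand, beside 149 of the other 242 (61.6%). The shortest of the 37 was 1220 bp, so the 32 one-strand clusters under 1 kb were all among the 242. Of these 32, 26 were on the minus strand, and they enter both the length and the strand contrast. Neither contrast was tested.

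The strand of these flanking clusters went with the side on which they lay. Counting along the chromosome, 24 came after the nearest overlapping cluster and 20 of these were on the plus strand. The other 13 came before it and 9 of these were on the minus strand. So 29 of 37 (78.4%) point away from the overlapping cluster. Within 10 kb this was 17 of 18, beside 16 overlapping clusters on 10 chromosomes. Between 10 and 100 kb it was 12 of 19, and for the 200 members at 1 Mb or more it was 113 (56.5%). The list and the rule bear on these counts. Same-strand reads over 1 kb apart are listed as separate clusters, and clusters touching an opposite-strand one were left out. In 42 of the 46 overlapping pairs the midpoint of the minus-strand cluster came first. A same-strand stretch listed apart from the outer end of such a pair would also point away. The counts are therefore partly set by the list and the rule and are a description.

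Examples lie on both sides. The cluster chr5:114515889-114536175 (minus, 20287 bp) ends 1220 bp before the minus-strand member of an overlapping pair, and chr13:73605393-73627274, among the 10 longest, ends 1485 bp before one. After overlapping clusters, chr6:122618347-122623098 (plus, 4752 bp) begins at 1014 bp, chr1:129042459-129058966 (plus, 16508 bp) at 1973 bp and chr3:76989223-77005069 (plus, 15847 bp) at 9603 bp. The exception within 10 kb is chr4:122184763-122186545 (minus, 1783 bp), which follows a minus-strand cluster at 1021 bp and points towards it. It lies between overlapping pairs. The next minus-strand overlapping cluster, chr4:122187918-122198057, begins 1372 bp after it, and the exception points away from that one. In 17 of the 18 cases within 10 kb the nearest overlapping cluster was on the same strand as its neighbor. Several flanking clusters share an overlapping neighbor and are not independent of each other.

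**Figure D5:**
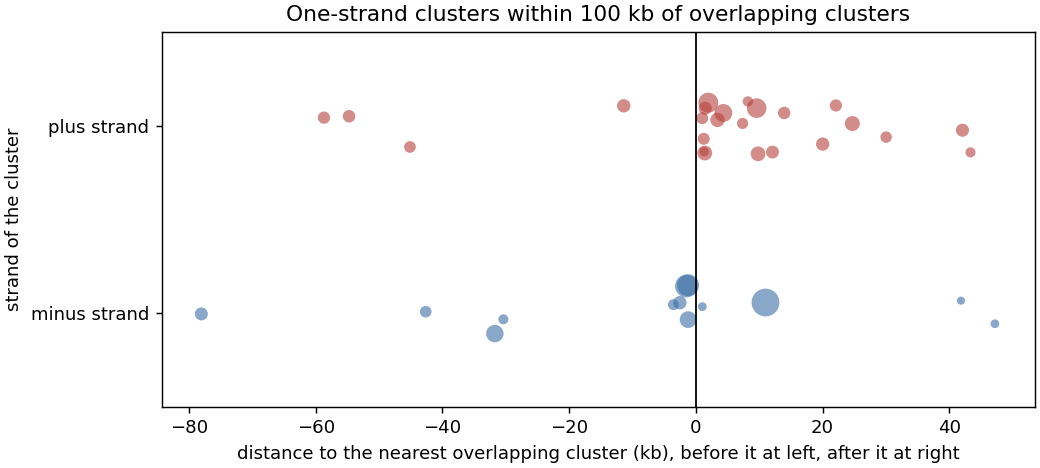
Strand (vertical axis, with jitter) and distance in kb from the nearest overlapping cluster (horizontal axis, before it at left and after it at right) for the 37 one-strand clusters within 100 kb, with point area rising with cluster length and colors for plus (red) and minus (blue). After overlapping clusters 20 of 24 are plus, and before them 9 of 13 are minus.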

How the data were processed

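Small RNA libraries of 16 samples were sequenced on SOLiD and reads were mapped to hairpins with SHRiMP. The positions of the clusters were used as the authors deposited them, in 1-based coordinates of RGSC3.4 (unit other: chromosome, start, end and strand). The authors removed reads of miRNAs and other known RNA genes and of coding genes, sought cores of more than 20 unique starts on 1 strand within 2 kb, and extended them while a read followed within 1 kb. How the testis libraries of the 2 strains entered the list is not given in the sources used here. Per the readme, the hairpin files hold the estimated counts of perfectly matching reads the authors deposited, with a read of several hits divided evenly. They were used here for depth and mir-202, with no other scaling than per 1000000 hairpin reads.

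Length is end minus start plus 1, and a distance is the number of bases between clusters. Clusters come from 1 list without replicates, so shares, medians and ranges are given without tests. Binomial intervals served only as a yardstick for how far an alternative moved a value; they treat clusters as independent, which neighbors are not. Named clusters are the 10 longest and 3 shortest members, the most isolated, the largest runs, the 5 closest opposite-strand pairs, the 3 smallest overlaps and the 3 longest overlapping clusters; other clusters and runs named as examples, and the flanking and neighbor counts, were chosen after their values were seen. Members and lists were chosen with earlier results of these data known. The functions were tested on simulated clusters. Python 3.11.15, numpy 2.4.6, pandas 2.3.3, scipy 1.17.1 and matplotlib 3.10.9 were used. Sequences and gene annotation in RGSC3.4 were not used here.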

Additional observations from a re-analysis of the deposited data

How the results depend on the processing

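Of 81 values recomputed for 14 results under 15 alternatives, 72 stayed within 1.5 times a count or ratio, or within the 95% binomial interval of a share or median, and 9 did not. Joining same-strand clusters within 5 kb before the rule moved most of them: the median distance to the nearest cluster became 186658 bp, the runs 29, their members 71 and the longest run 6, as follows from joining near neighbors. Under the same joining 72.4% of neighbors within 100 kb shared the strand, and 76.1% did without clusters under 1 kb, beside 84.6% as reported. Both of these were added after the data were seen. The number of opposite-strand pairs was 4 up to 10 kb, 33 up to 1 Mb and 4 with both clusters at least 5 kb long. The share of pairs pointing away was 50%, 57.6% and 75% in these settings, beside 62.5% as reported. Asking for 100 bp or 10% of overlap left the 279 one-strand clusters as they were, and counting clusters within 10 kb as overlapping left 263. No paired analysis was possible because the list names no sample and no result comes from a test. The read depth behind each cluster is unknown.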

Other observations

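The 32 one-strand clusters under 1 kb (11.5% of the members, beside 5 of the 86 overlapping clusters, 5.81%) were counted by strand and setting. Of them, 26 (81.3%) were on the minus strand, beside 136 of the 247 one-strand clusters of at least 1 kb (55.1%). In runs lay 23 (71.9%), beside 45.3% of those of at least 1 kb, and the 23 share 15 runs. The 32 were found on 10 chromosomes, 8 of them on chromosome 1 and 6 each on chromosomes 2 and 4, and 8 were under 200 bp. These counts were made after the lengths were seen and were not tested.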
